A study of Homo sapiens
Mus musculus and Homo sapiens and Mus musculus with 7 samples.

Results

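The 47 human genes described here encode the machinery that takes new secretory and membrane proteins into the endoplasmic reticulum (ER) and folds them there. They were taken by gene symbol from the annotation of the counts, not by their level, and all 47 were found among 58721 human genes. Earlier results of these data were known when the list was made. By role they are 6 genes of the translocon, 8 of the signal recognition particle (SRP) and its receptor, 5 of signal peptidase, 4 of the TRAP complex and 8 of oligosaccharyltransferase. The other members are 3 cargo receptors of the early secretory pathway, 6 ER chaperones, 2 lectin chaperones and 5 disulfide and proline isomerases. By the place of the encoded protein, 12 act in the ER lumen, 29 sit in the membrane of the ER or early Golgi, and 6 are cytosolic subunits of SRP.

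The libraries came from a culture in which HEK293, a human embryonic kidney cell line, grew together with NIH3T3, a mouse fibroblast line, and from each line alone. Per the labels, RPL22, a ribosomal protein, was tagged with HA in HEK293 and with V5 in NIH3T3. An antibody against one tag then pulls down the ribosomes of one line with the mRNA on them. The 5 groups were the co-culture input (1 library of total RNA from the mixed culture), HEK293 monoculture (1), NIH3T3 monoculture (1), HA immunoprecipitates (IPs; a first and a second) and V5 IPs (a first and a second). No drug treatment, culture time or number of clones is given in the labels, and they do not say if cells grown alone were tagged. The descriptions name sample 1 lysate for the first HA and the first V5 IP, sample 5 lysate for the second HA IP and sample 4 lysate for the second V5 IP. Whether those lysates came from separate cultures is not stated, so p-values measure the spread between these libraries, which may be technical.

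The input held 280163 counts on human genes and the HEK293 monoculture 826673. The HA pair held 729698 (first IP) and 1213213 (second), and the V5 pair 128915 and 81798. Below, paired values of the HA or V5 pair are always given with the first IP first. Levels below are counts per 1e6 human counts of the library (CPM), so they are not affected by the mouse share. The 47 genes had 1 count in total, on SEC62, in the NIH3T3 monoculture of 1999078 counts. A gene with 0 counts there could still hold up to 1.501 counts per 1e6. Over 10 genes chosen as HEK293 markers the summed level was 1049 CPM in the input and 998 in HEK293, 2508 and 870.4 in the HA pair, and 2350 and 599 in the V5 pair, with NEFM at 0 in all 6. Of these 10 markers, 7 had counts in the input, 9 in HEK293, 8 in each HA IP, and 4 and 5 in the V5 pair. Over 10 fibroblast markers it was 0 to 16.5 CPM, from 0 to 20 counts. Mitochondrially encoded genes held 5.58% of human counts in the input and 8.35% in HEK293, against 0.354% and 0.466% in the HA pair and 2.28% and 3.54% in the V5 pair.

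As background, most secreted and membrane proteins carry a hydrophobic signal that SRP recognises as it leaves the ribosome. SRP brings the whole ribosome to its receptor at the ER, the chain is threaded through the Sec61 channel, and the signal is cut off, sugars are attached and the protein is folded by chaperones while or after it enters. Cells that make many secretory proteins hold high levels of this machinery, and most of its genes are expressed in nucleated cells of all kinds.

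The few human counts of the V5 libraries limited how many members could be seen. These libraries held 2063885 and 1826127 counts of both species, of which 6.25% and 4.48% were human. In the HA pair 82.1% and 77.6% of 888270 and 1563389 counts were human. All 47 had counts in the input, in HEK293 and in both HA IPs, while 45 had counts in the first V5 IP and 42 in the second. SRP54 and DNAJB11 were at 0 in the first V5 IP, where 0 counts allow up to 23.3 CPM. SRP68, SRPRA, DDOST, STT3B and HYOU1 were at 0 in the second V5 IP, where 0 counts allow up to 36.7 CPM. In all, 45 of the 47 passed the filter on low counts and were tested. SRP68, a cytosolic SRP subunit, and HYOU1, a chaperone that serves as exchange factor for BiP, did not pass it. SRP68 had 4 counts in the input, 12 in HEK293, 13 in each HA IP and 2 and 0 in the V5 IPs, and HYOU1 had 3, 14, 11 and 14, and 2 and 0 in the same order.

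A few small subunits dominated the group. Per kilobase of exon and scaled to a fixed total over all human genes, SEC61B, a small subunit of the channel, stood first in the HA IPs with a level of 5372 ± 964 (SD, n = 2), and also first in the input (2515) and in HEK293 (2353). DAD1, a small subunit of oligosaccharyltransferase, was second at 1235 ± 378 in the HA IPs, and SPCS1, of signal peptidase, came next at 932 ± 54.4. SRP14 (866 ± 25.1) and PPIB (717 ± 105) followed, and of the neighbours in this order DAD1 and SPCS1 did not differ beyond their SDs, nor did SPCS1 and SRP14. In the second HA IP SPCS1 (970.8) lay just above DAD1 (968). The order of these genes depends on the divisor, the exonic length over all annotated transcripts. That length is 5324 bases for SPCS1, whose reference transcript has 832, and 808 for DAD1, whose reference transcript has 731. Without division by length, SPCS1 averaged 2151 CPM in the HA IPs and DAD1 428. HYOU1 (4.03 ± 1.01) and SRP68 (4.37 ± 1.80) were the lowest. Short transcripts had the high levels: across the 47 genes, which share libraries and are not independent, Spearman's rho of CPM, which is not divided by length, with transcript length ran from −0.65 in the input to −0.40 in the V5 IPs. Together SEC61B, SPCS1, SSR2, SSR4 and SRP14 held 59.2% of the members' counts in the input and 38.5% in HEK293, with 48.1% and 62.3% in the HA pair and 50.1% and 54.2% in the V5 pair. Spearman's rho of the levels per length over the 47 genes ran from 0.83 (input and second V5 IP) to 0.94 (the HA IPs with each other) over the 15 pairs of libraries. It was 0.92 and 0.89 between the HA IPs and HEK293, 0.88 between each HA IP and the input, 0.87 between the V5 IPs and 0.84 between the input and HEK293.

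**Figure D1:**
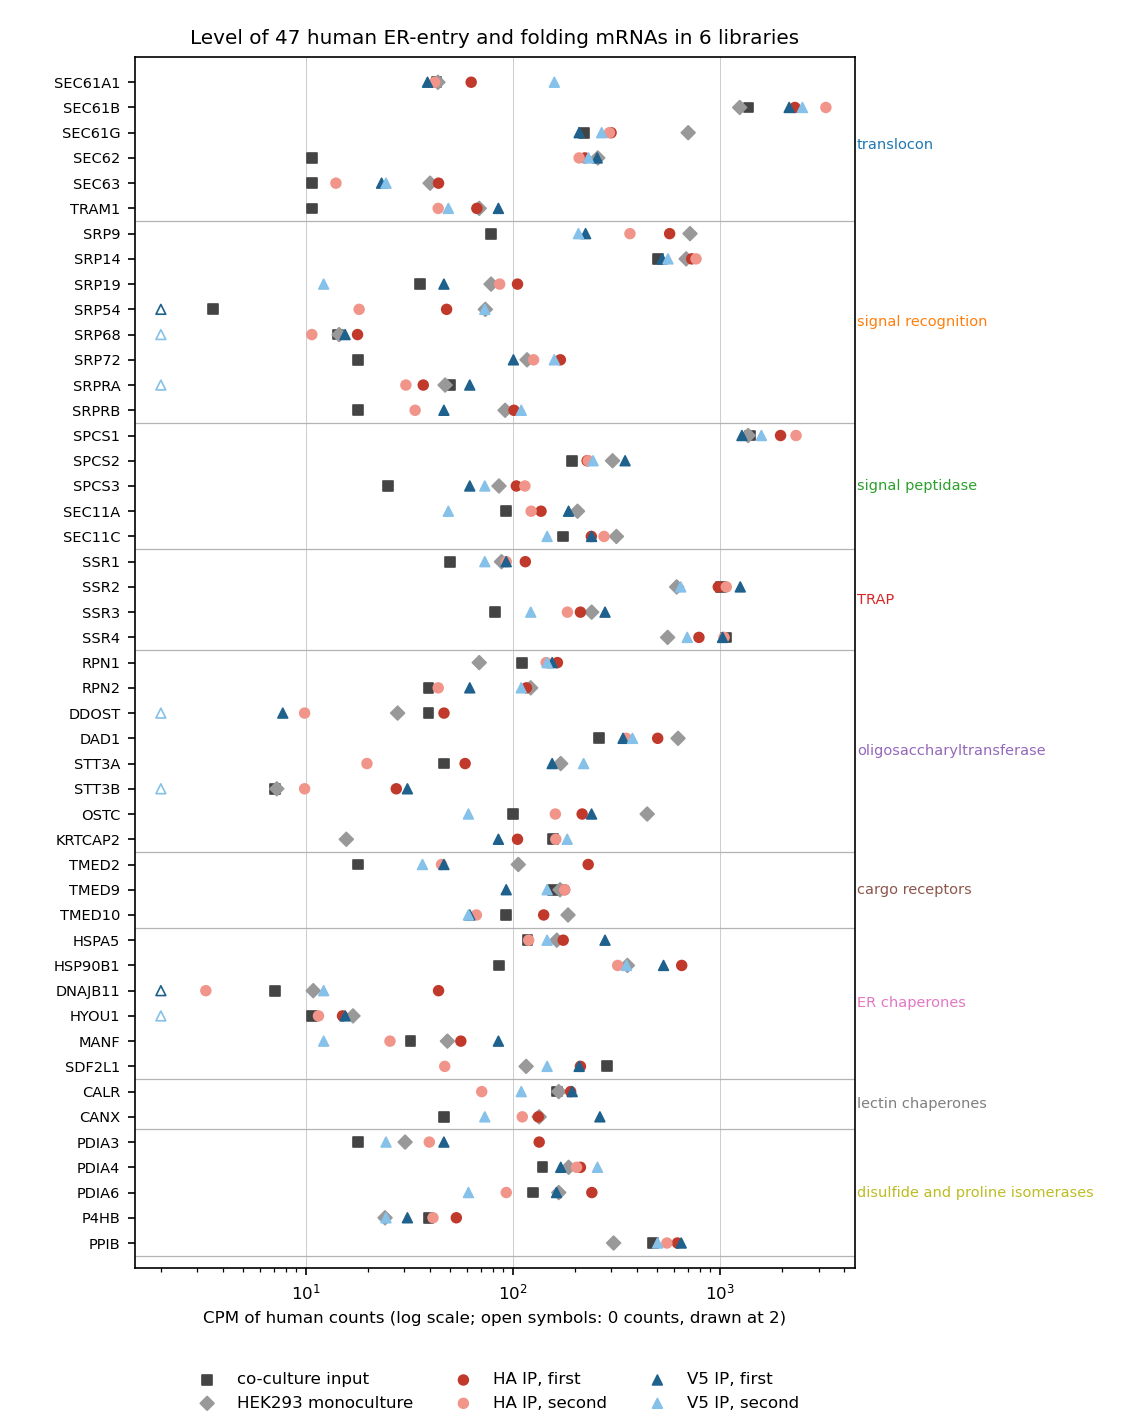
Level of each of the 47 genes in the 6 libraries with human RNA, as CPM of human counts on a log axis, grouped by role; each symbol is 1 library and open symbols mark 0 counts, drawn at 2. SEC61B reaches 3256 CPM in the second HA IP, and SEC62, SRP9 and HSP90B1 lie lower in the input than in each of the other 5 libraries.

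Taken as 1 sum, the 47 genes held 0.908% of the input's human counts (exact Clopper-Pearson 95% interval 0.873 to 0.943%), 1.17% in HEK293 (1.14 to 1.19%), 1.41% and 1.36% in the HA pair, and 1.25% and 1.11% in the V5 pair. Intervals cover counting error only, since reads without molecular identifiers are not independent molecules. The input was the lowest of the 6 and the HA IPs the highest. The share averaged 1.39% ± 0.0341 over the HA pair and 1.18% ± 0.101 over the V5 pair (SD, n = 2 each), a difference of 0.207 percentage points. The groups did not overlap. A two-sided exact permutation test returned p = 0.333, which is the lowest value 2 against 2 libraries can reach. As a mean of log2 CPM over the 47 genes, the difference had the opposite sign (−0.14, exact permutation p = 1). That mean added 2 counts to each gene in every library, which raises low genes most in the V5 libraries, where human counts were fewest. Its sign therefore cannot show what equal weighting of the genes gives. In the edgeR fit scaled by human totals, the members' median log2 change of HA against V5 was 0.10, with 29 of 45 above 0. The median over all genes was 0.003 in that fit. In the edgeR fit of genes with at least 50 counts in 2 libraries, the members' median was −0.08. There 16 of 34 were above 0, and the all-gene median was 0.01. The sign of the members' median thus depended on the fit. In bulk RNA, fewer cells of a type and less RNA per cell cannot be told apart.

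**Figure D2:**
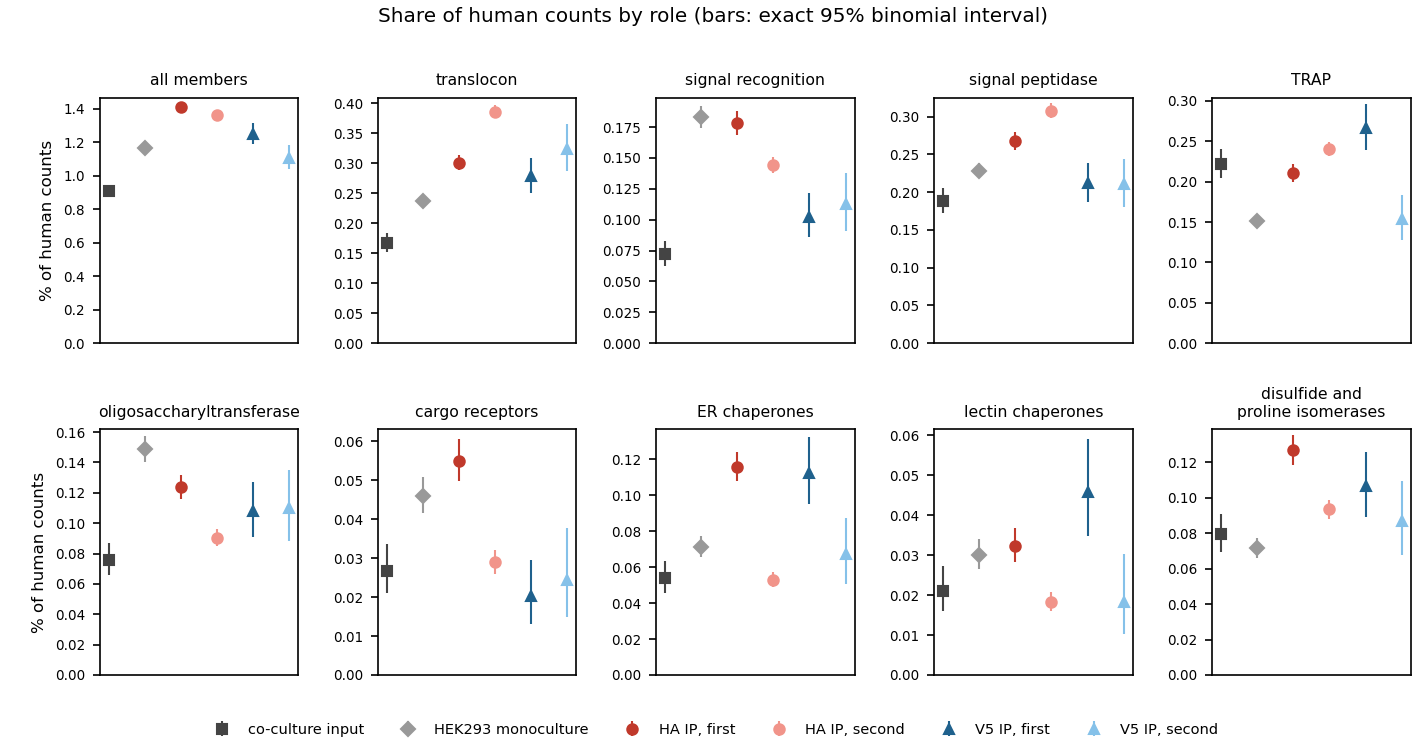
Share of human counts held by all 47 genes and by each role group, in percent, with exact 95% binomial intervals as bars; each symbol is 1 library and each panel starts at 0. For signal recognition the input, at 0.0721%, lies below HEK293 at 0.183%, while for TRAP the input, at 0.222%, lies above HEK293 at 0.151%.

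Against the co-culture input, 1 of the 45 tested genes was higher in the HA IPs and none was lower. This was SEC62, which with SEC63 assists the entry of chains that reach the channel after synthesis. Over all 6244 human genes tested, 0.625% were called by edgeR's quasi-likelihood test at a Benjamini-Hochberg adjusted p under 0.05 (0.192% higher and 0.432% lower). Before adjustment 6 of 45 members, SDF2L1 the only lower one among them, and 553 of 6244 genes (8.86%) had p under 0.05. The members' median log2 change was 0.41 beside 0.38 over all genes, and 25 of 45 lay above that all-gene median, so the list as a whole sat where other genes did. By role, median changes were 1.63 for signal recognition and 1.00 for the translocon, 0.40 for signal peptidase, 0.40 for oligosaccharyltransferase and 0.36 for TRAP. They were 0.30 for the lectin chaperones, 0.16 for the isomerases, 0.11 for the ER chaperones and 0.01 for the cargo receptors.

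The members with high and low changes differed in base composition. Below are 60 coding bases from the middle of the coding sequence, on the coding strand, of the 3 higher members with the smallest p and of the 3 with the lowest change among those with at least 30 counts in the input, chosen after their values were seen. They were read from the GENCODE 29 transcripts (hg38), and capitals mark G and C. The genes lie on chromosome 3 (SEC62), chromosome 1, 225777813 to 225790466 (SRP9), chromosome 12, 103930107 to 103953645 (HSP90B1), chromosome 22, 21642261 to 21644298 (SDF2L1), chromosome 19, 12938578 to 12944489 (CALR), and chromosome X, 153793516 to 153798505 (SSR4). The windows start at coding base 568, 100, 1174, 301, 595 and 229 in that order.
SEC62: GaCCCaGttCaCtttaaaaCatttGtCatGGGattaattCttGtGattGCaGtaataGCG
SRP9: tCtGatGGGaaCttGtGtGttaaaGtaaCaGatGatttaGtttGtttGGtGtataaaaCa
HSP90B1: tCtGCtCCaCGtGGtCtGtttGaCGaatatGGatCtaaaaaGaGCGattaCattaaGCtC
SDF2L1: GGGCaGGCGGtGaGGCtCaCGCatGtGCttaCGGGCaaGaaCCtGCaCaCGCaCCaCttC
CALR: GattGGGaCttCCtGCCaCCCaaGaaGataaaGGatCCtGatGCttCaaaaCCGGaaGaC
SSR4: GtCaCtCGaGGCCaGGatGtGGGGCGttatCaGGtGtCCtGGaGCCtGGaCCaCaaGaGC

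The windows of SEC62, SRP9 and HSP90B1 hold 22, 19 and 25 G or C of 60, and those of SDF2L1, CALR and SSR4 hold 38, 29 and 37. Over the whole reference transcript GC was 36.7% for SEC62, 35.7% for SRP9 and 42.4% for HSP90B1, against 65.5% for SDF2L1, 53.9% for CALR and 62.9% for SSR4. The limit of 30 input counts was set for the lower genes only. SEC62, SRP9 and HSP90B1, with 3, 22 and 24 input counts, would not reach it. It left out DDOST (log2 −0.78, GC 54.1%), SRPRA (−0.75, 51.7%) and STT3A (−0.52, 43.8%), which had lower changes than SSR4 (−0.37). The 6 genes shown therefore do not measure the contrast in GC. Across the 45 tested members, Spearman's rho of the HA against input change with transcript GC was −0.71, and −0.69 without SEC62. It was −0.52 over all 6244 genes tested and −0.68 over the 2255 of them with at least 50 CPM, so the sign was shared with other genes. With V5 against input, which shares the input library, rho over the members was −0.64. In comparisons without the input it was 0.28 (HA against HEK293) and −0.10 (HA against V5). Median transcript GC was 48.0% both for the members and for all genes tested. It was 41.3% for the cytosolic SRP subunits, whose median change was 2.36, and 53.4% for the genes of lumenal proteins, whose median change was 0.13. The part of GC in the differences between roles was not tested.

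**Figure D3:**
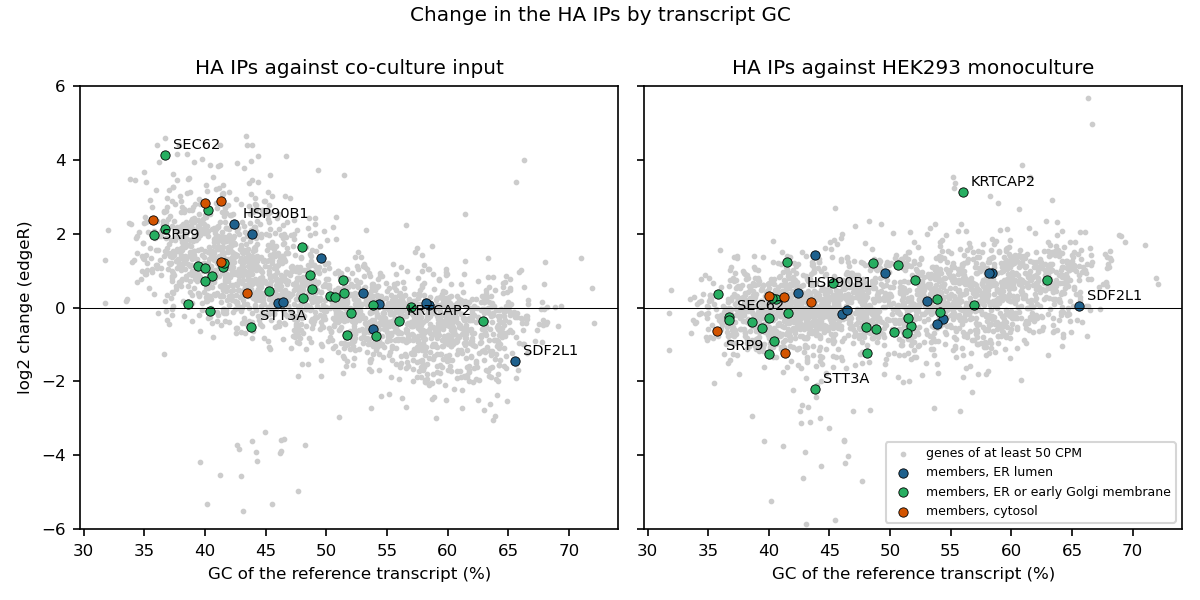
Fitted log2 change of the HA IPs against the co-culture input (left) and against HEK293 (right) by GC content of the reference transcript in percent, for human genes of at least 50 CPM (grey) and the members, coloured by the place of the encoded protein. On the left, low-GC members such as SEC62 at 36.7% lie high and SDF2L1 at 65.5% lies lowest among the members; on the right the slope is shallow and opposite in sign.

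SEC62 (ENSG00000008952.16; hg38 chromosome 3, 169966635 to 169998373) had 3 counts in the input and 213 in HEK293, with 163 and 254 in the HA pair and 33 and 19 in the V5 pair. These are 10.7 CPM in the input and 258 in HEK293, with 223 and 209 in the HA pair and 256 and 232 in the V5 pair. The input alone was low, and the other 5 libraries lay within a narrow range. The ratio of pooled HA IPs to input was 20.04 (6.81 to 97.6, exact interval from counting error). The fitted log2 change was 4.13 (SE 1.10; edgeR quasi-likelihood, Benjamini-Hochberg adjusted p = 0.0200). V5 against input, with the same input library, gave 3.93 (SE 1.12; edgeR adjusted p = 0.0371) and HA against HEK293 −0.25. The input-based call was lost without the first HA IP (log2 4.21; edgeR adjusted p = 0.112) and without the second (3.94; 0.143), with little change in the fold, and with the GC trend removed, with a lower one (2.62, SE 1.03; 0.524).

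Among the other translocon genes the HA IPs and the input were closer. SEC61B was at 1378 CPM in the input and 1248 in HEK293, with 2306 and 3256 in the HA pair and 2164 and 2506 in the V5 pair, so all 4 IPs lay above both total RNA libraries. Its change was 0.87 (SE 0.51; edgeR adjusted p = 0.678) against the input and 1.2 (SE 0.50) against HEK293, where it passed only without the first HA IP (log2 1.53; edgeR adjusted p = 0.00861). SEC61A1, the subunit that forms the channel, was at 42.8 CPM in the input and 43.5 in HEK293, with 63.0 and 42.0 in the HA pair and 38.8 and 159 in the V5 pair. The groups overlapped, and its change against the input, 0.08 (SE 1.08), was the lowest of the translocon. Although the channel holds its 3 Sec61 subunits together, SEC61B mRNA per length exceeded that of SEC61A1 by 62.2 to 306 times in the 6 libraries, and SEC61G mRNA exceeded it by 4.31 to 41.2 times. SEC61G, SEC63 and TRAM1 differed from the input by 0.25, 1.14 and 2.14 (edgeR adjusted p from 0.708 to 0.965), and SEC63 and TRAM1 had 3 input counts each.

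The SRP genes had the highest median change of all roles, but none passed. SRP9, which with SRP14 slows elongation while the ribosome is brought to the ER, was at 78.5 CPM in the input and 719 in HEK293, with 573 and 368 in the HA pair and 225 and 208 in the V5 pair. The HA IPs lay between the V5 IPs and HEK293, and the input was lowest. Its change was 2.36 against the input (SE 0.69; edgeR adjusted p = 0.129) and 1.46 against the V5 IPs (SE 0.55; edgeR adjusted p = 0.281). Against the input it passed with scaling by human totals (edgeR adjusted p = 0.00577), with DESeq2's Wald test (0.0415), in a fit of only the groups compared (edgeR, 0.0307) and with the IP order as a block (log2 2.36; edgeR, 0.0456). With the GC trend removed its change was 0.75. SRP14 was at 503 CPM in the input and 688 in HEK293, with 732 and 768 in the HA pair and 527 and 562 in the V5 pair. It had the highest mean level of the role and a change of 0.41 (SE 0.58) against the input.

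SRP72, which binds SRP RNA together with SRP68, was at 17.8 CPM in the input and 117 in HEK293, with 170 and 126 in the HA pair and 101 and 159 in the V5 pair. Only the input stood apart, at 5 counts. The change was 2.84 (SE 1.05; edgeR adjusted p = 0.297, and 0.0333 in a fit of only the groups compared). SRP54, the subunit that binds the signal, had 1 count in the input (3.57 CPM) and stood at 73.8 CPM in HEK293, with 48.0 and 18.1 in the HA pair and 0 and 73.4 in the V5 pair. Its ratio of HA IPs to input was 8.22 with an interval of 1.42 to 330.3, so its size was hardly determined. SRPRA, the receptor subunit that docks SRP, was at 49.97 CPM in the input and 47.2 in HEK293, with 37.0 and 30.5 in the HA pair and 62.1 and 0 in the V5 pair, the only gene of the role with a change below 0 (−0.75, SE 1.17). SRP19 and SRPRB differed from the input by 1.23 (SE 1.05) and 1.63 (SE 1.18), and exons of other genes cover 18.2% and 21.1% of theirs, which makes their counts uncertain without strand.

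Signal peptidase, which cuts off the signal, had 5 genes above 0 against the input, where 36 of 45 members and 3834 of 6244 genes were. Of the 5, 3 lay above the all-gene median of 0.38, and none passed. SPCS1 was at 1403 CPM in the input and 1372 in HEK293, with 1967 and 2336 in the HA pair and 1279.9 and 1589 in the V5 pair. The HA IPs lay above the other 4 libraries. Exons of other genes cover 58.1% of its exonic bases and counting used no strand, so this level may include reads of those genes. Against the V5 IPs its change was 0.99 (SE 0.43; edgeR adjusted p = 0.361), and it passed without the first HA IP (1.21; edgeR adjusted p = 0.0447). SPCS3 had the highest change against the input of the role (1.96, SE 1.05), at 24.99 CPM in the input and 85.9 in HEK293, with 104 and 115 in the HA pair and 62.1 and 73.4 in the V5 pair. SPCS2 had the lowest (0.08, SE 0.69), at 193 CPM in the input and 304 in HEK293, with 229 and 232 in the HA pair and 349 and 245 in the V5 pair. The catalytic subunits SEC11A and SEC11C changed places in no library: per length, SEC11A was 0.262 to 0.608 times SEC11C in all 6.

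TRAP, a complex beside the channel that helps some signals to insert, was the role in which the input lay highest relative to HEK293. SSR2 was at 1014 CPM in the input and 619 in HEK293, with 984 and 1076 in the HA pair and 1257 and 648 in the V5 pair. SSR4 was at 1074, 560.1, 793 and 1049, and 1032 and 697 CPM in the same order. For both, the HA IPs lay near the input (−0.14, SE 0.55, and −0.37, SE 0.55) and above HEK293 by 0.75 (SE 0.55 for each), which did not pass the test. SSR3 was at 82.1 CPM in the input and 241 in HEK293, with 212 and 184 in the HA pair and 279 and 122 in the V5 pair. Its change of 1.08 (SE 0.77) was the highest of the role, and that of SSR1 was 0.86 (SE 0.95).

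Oligosaccharyltransferase, which attaches sugars to asparagines of the entering chain, held the members that differed most from HEK293. KRTCAP2 (ENSG00000163463.11; hg38 chromosome 1, 155169408 to 155173475), a subunit of the complex that works beside the channel, had 44 counts in the input and 13 in HEK293, with 77 and 196 in the HA pair and 11 and 15 in the V5 pair. These are 157 CPM in the input and 15.7 in HEK293, with 106 and 162 in the HA pair and 85.3 and 183 in the V5 pair. HEK293 alone was low, and the ratio of pooled HA IPs to it was 8.94 (5.14 to 17.0). The log2 change was 3.12 (SE 0.89; edgeR adjusted p = 0.235). It passed in a fit of only the groups compared (edgeR adjusted p = 0.0167) and with either V5 IP left out (0.0146 without the first, 0.0151 without the second). Exons of other genes cover 18.4% of its exonic bases.

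STT3A, the catalytic subunit of that complex, is named because of its values, whose change had the opposite sign. It was at 46.4 CPM in the input and 171 in HEK293, with 58.9 and 19.8 in the HA pair and 155 and 220.1 in the V5 pair, so the HA IPs lay below HEK293 and below both V5 IPs. The changes were −2.21 against HEK293 (SE 0.84; edgeR adjusted p = 0.612) and −1.95 against V5 (SE 0.73; edgeR adjusted p = 0.287), neither of which passed. STT3B, the catalytic subunit of the second form of the enzyme, was near the limit of detection at 7.14 CPM in the input and 7.26 in HEK293, with 27.4 and 9.89 in the HA pair and 31.0 and 0 in the V5 pair. DAD1 was at 261 CPM in the input and 629 in HEK293, with 502 and 354 in the HA pair and 341 and 379 in the V5 pair, with a change of 0.51 (SE 0.63) against the input. DDOST, with 15.7% of its exonic bases shared, had the lowest change against the input within oligosaccharyltransferase (−0.78, SE 1.32), at 39.3 CPM in the input and 27.8 in HEK293, with 46.6 and 9.89 in the HA pair and 7.76 and 0 in the V5 pair. RPN1, RPN2 and OSTC differed from the input by 0.30, 0.76 and 0.71 (SE from 0.74 to 0.99).

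**Figure D4:**
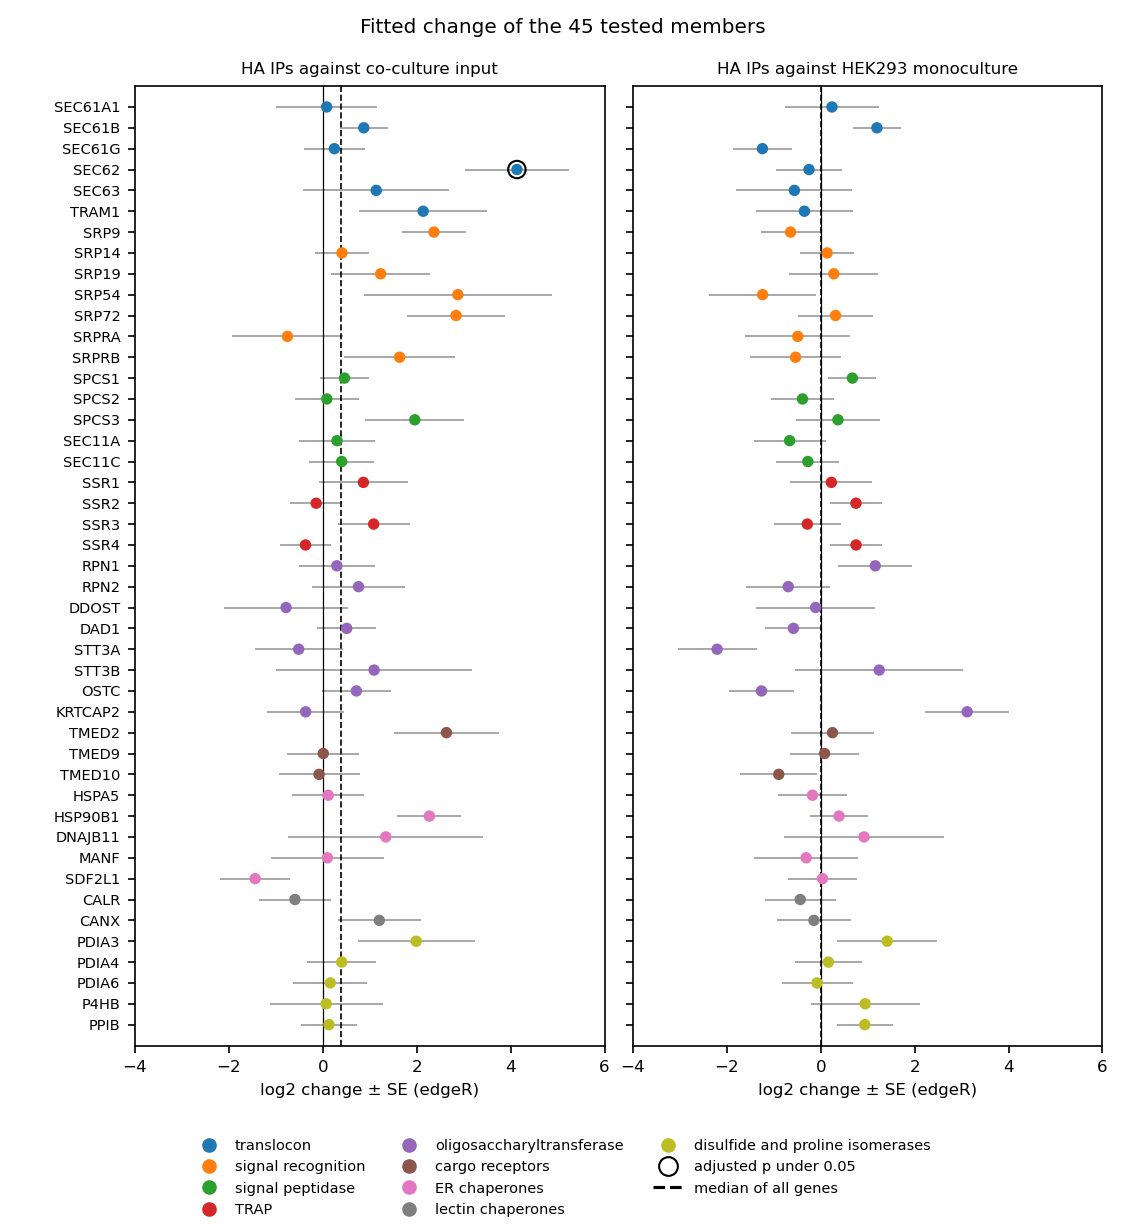
Fitted log2 change ± SE of the 45 tested members in the HA IPs against the co-culture input (left) and against HEK293 (right), coloured by role, with the median of all 6244 genes dashed and a ring for an adjusted p under 0.05. SEC62 on the left, at 4.13, carries the only ring, and KRTCAP2 (3.12) and STT3A (−2.21) lie at the ends on the right.

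Among the cargo receptors, which sort proteins into vesicles between ER and Golgi, TMED2 and TMED10 were over 2-fold higher in the first than in the second HA IP. TMED2 was at 17.8 CPM in the input and 106 in HEK293, with 232 and 45.3 in the HA pair and 46.5 and 36.7 in the V5 pair. Its first HA IP stood apart from the second by 5.11 times (3.75 to 7.06, counting error), and the change against the input was 2.63 (SE 1.11; edgeR adjusted p = 0.444). TMED10 was at 92.8 CPM in the input and 185 in HEK293, with 141 and 66.8 in the HA pair and 62.1 and 61.1 in the V5 pair (change −0.08, SE 0.86). TMED9 was at 157 CPM in the input, 169 in HEK293, 178 in each HA IP and 93.1 and 147 in the V5 IPs (change 0.01, SE 0.76).

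Of the ER chaperones, HSP90B1, the ER form of HSP90, was at 85.7 CPM in the input and 358 in HEK293, with 655 and 321 in the HA pair and 535 and 355 in the V5 pair. The input was the lowest, and the 2 pairs of IPs overlapped each other and HEK293. The change was 2.27 (SE 0.68; edgeR adjusted p = 0.161), and it passed with scaling by human totals (log2 2.51; edgeR adjusted p = 0.00616) and in a fit of only the groups compared (edgeR adjusted p = 0.0378). After removal of the GC trend it stood at 1.32. SDF2L1, which works with HSPA5 and ER J-domain proteins, was at 286 CPM in the input and 116 in HEK293, with 212 and 46.98 in the HA pair and 209 and 147 in the V5 pair. It was highest in the input, and its change of −1.44 (SE 0.74; edgeR adjusted p = 0.539) was the lowest of all members. It was −2.65 without the first HA IP, −0.84 without the second and −0.74 with the GC trend removed. HSPA5 (BiP), the central ER chaperone and a marker of ER stress, was at 118 CPM in the input and 163 in HEK293, with 175 and 120 in the HA pair and 279 and 147 in the V5 pair, with a change of 0.11 (SE 0.77). MANF and DNAJB11 differed by 0.10 (SE 1.2) and 1.34 (SE 2.07). DNAJB11 had 2 counts in the input and 32 and 4 in the HA pair, and exons of other genes cover 23.2% of its exonic bases.

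The lectin chaperones hold glycoproteins while they fold. CALR, soluble in the lumen, was at 164 CPM in the input and 167 in HEK293, with 190 and 70.9 in the HA pair and 194 and 110 in the V5 pair, with a change of −0.59 (SE 0.77). CANX, its membrane-bound relative, was at 46.4 CPM in the input and 134 in HEK293, with 133 and 111 in the HA pair and 264 and 73.4 in the V5 pair, with a change of 1.2 (SE 0.88). Neither passed the test, and the difference between them was not tested.

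The isomerases form and rearrange disulfide bonds or, for PPIB, turn proline bonds. PPIB was at 475 CPM in the input and 307 in HEK293, with 625 and 556 in the HA pair and 652 and 501 in the V5 pair (change 0.13, SE 0.60), with all 4 IPs above both total RNA libraries. PDIA3, which acts on glycoproteins held by CALR and CANX, had the highest change against the input among the isomerases (1.99, SE 1.24), at 17.8 CPM in the input and 30.2 in HEK293, with 134 and 39.6 in the HA pair and 46.5 and 24.5 in the V5 pair. P4HB had the lowest of them (0.07, SE 1.21), at 39.3 CPM in the input and 24.2 in HEK293, with 53.4 and 41.2 in the HA pair and 31.0 and 24.5 in the V5 pair. PDIA4 and PDIA6 differed by 0.40 (SE 0.74) and 0.16 (SE 0.79). Exons of other genes cover 27.2% of the exonic bases of PPIB, 25.2% of PDIA6 and 18.9% of PDIA3.

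Against HEK293 grown alone, none of the 45 tested members passed, where 0.368% of all genes did (0.0480% higher and 0.320% lower). At an unadjusted p under 0.05 there were 4 members (KRTCAP2, STT3A, SEC61B and SEC61G), or 8.89%, beside 3.83% of all genes. DESeq2's Wald test gave an adjusted p to only 5 of the 45 members and 313 of the 6244 genes in this comparison, and called none of those 5, so it does not bear on the other 40 members. At an unadjusted p under 0.05 it had 4 of the 45 members, beside 187 of 6244 genes. The members' median change was −0.08 beside 0.01 over all genes, and 22 of 45 lay above the all-gene median. SEC61G had 704 CPM in HEK293 and 299 and 293 in the HA IPs (log2 −1.24, SE 0.63), opposite in direction to SEC61B of the same channel. The difference between these subunits was not tested.

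Because the input and HEK293 both hold total RNA of human cells and neither had a replicate, they were set side by side without a test. Of the 36 members with at least 50 CPM in either library, 9 were at least 4-fold lower in the input, beside 15.8% of all 2558 genes kept, and 1 was at least 4-fold higher, beside 2.27% (18.0% in either direction). The lower members were SEC62 (log2 −4.19), SRP54 (−3.43), SRP9 (−3.14), SRP72 (−2.49), TMED2 (−2.36), TRAM1 (−2.34), SRPRB (−2.15), OSTC (−2.12) and HSP90B1 (−2.02). The higher one was KRTCAP2 (3.05). SEC62, SRP54, SRP72, TMED2, TRAM1 and SRPRB rested on 1 to 5 counts in the input (3.57 to 17.8 CPM). They reached 50 CPM only in HEK293, and KRTCAP2 reached it only in the input, so each was kept by the library in which it was high. SRP9, OSTC and HSP90B1 reached 50 CPM in both. The median over the members was −1.02 and over all genes −0.31. Of the 9 lower members, 4 belong to signal recognition and 2 to the translocon, but among these only SRP9 reached 50 CPM in both libraries. The input also enters the comparison of HA IPs with input, where SEC62, SRP9 and HSP90B1 had changes of 4.13, 2.36 and 2.27, while their changes against HEK293 were −0.25, −0.64 and 0.39.

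Between the HA and the V5 IPs, human RNA is compared between the antibody whose tag the human cells carried and the antibody whose tag they did not. None of 45 members passed, where 0.368% of all genes did (0.0480% higher, 0.320% lower). At an unadjusted p under 0.05 there were 5 members (SRP9, SPCS1, SRP19, STT3A and TMED2), or 11.1%, beside 11.2% of all genes. DESeq2's Wald test, which gave all 45 an adjusted p here, called 0, with 2 at an unadjusted p under 0.05, beside 373 of 6244 genes. The median change was 0.49 beside 0.37 over all genes, with 28 of 45 above it. The members of the V5 IPs rested on 1612 and 906 counts, so only large differences could be seen. The share of human counts held by the 6 cytosolic SRP subunits averaged 0.151% ± 0.0189 over the HA pair and 0.0965% ± 0.00703 over the V5 pair, with 0.0653% in the input and 0.169% in HEK293. By the same two-sided exact permutation test p was 0.333 (0.722 after Benjamini-Hochberg adjustment over 13 groups of members). For the 12 lumenal genes the shares were 0.207% ± 0.0765 and 0.202% ± 0.0517, with p = 1 by the same exact test.

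In V5 IPs against the input SEC62 was the 1 member called of 45, where 0.753% of all genes were called (0.256% higher), with a members' median of 0.08 beside 0.00 over all genes. SRP72 and HSP90B1 had unadjusted p under 0.05 as well, with log2 changes of 2.27 and 1.83 (edgeR adjusted p = 0.353 and 0.238). With SEC62 these made 3 of 45 members (6.67%), beside 12.9% of all genes. HSP90B1 passed with scaling by human totals (log2 2.38; edgeR adjusted p = 0.0154). The SEC62 call was lost without a filter (log2 3.90; edgeR adjusted p = 0.0965), with a filter of 50 counts (4.31; 0.0653) and with an HA IP left out (3.94 and 0.0675 without the first, 3.92 and 0.0779 without the second), so in these the change stayed near its value of 3.93. It was also lost with the GC trend removed, where the change was lower (2.92; 0.213).

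The genes of lumenal proteins had lower levels in the second HA IP than in the first. As single libraries, without a test, all 10 lumenal members with at least 50 CPM in either HA IP were higher in the first, where 60.0% of 2590 genes were, and 6 of them by at least 2-fold, where 17.9% were. Over all 39 members kept, 30 were higher in the first, 11 of them at least 2-fold, and none was at least 2-fold lower, beside 2.32% of all genes. Of these 11, SDF2L1, PDIA3, MANF, TMED2, SRPRB, STT3A and RPN2 reached 50 CPM only in the first HA IP. Each of those was therefore kept by the library in which it was high. PDIA6, CALR, HSP90B1 and TMED10 reached 50 CPM in both. The largest lumenal differences were in SDF2L1 (log2 2.13), PDIA3 (1.71), CALR (1.40), PDIA6 (1.35), MANF (1.08) and HSP90B1 (1.02). The median was 1.05 for the lumenal members, 0.18 for those of the membrane and 0.35 for the cytosolic ones, beside 0.19 for all genes. By role, however, it was 1.06 for the 3 cargo receptors, which are membrane members, and 0.36 for the 5 isomerases, which are lumenal. The difference was therefore neither particular to lumenal members nor equally large in all of them. In the V5 pair 7 of 8 lumenal members were higher in the first IP, beside 51.2% of 3290 genes. Their median was 0.65, and 2 were at least 2-fold higher, beside 25.9%. MANF reached 50 CPM only in the first V5 IP (85.3 and 12.2 CPM). Along the whole set of 2590 genes the first-over-second HA difference had a Spearman's rho of −0.33 with transcript GC and 0.36 with transcript length. Over the 39 members these were −0.10 and 0.30. The lysate and the order of the IP differ together between first and second libraries and cannot be told apart.

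**Figure D5:**
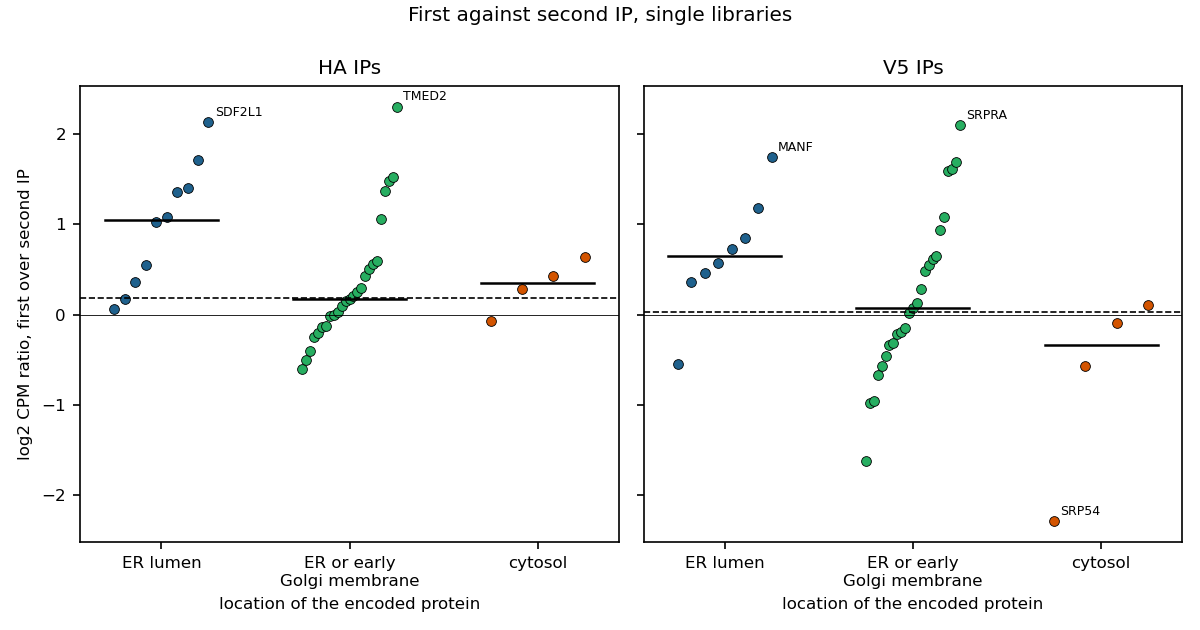
Log2 CPM ratio of the first over the second IP for members with at least 50 CPM in either library, by the place of the encoded protein, for the HA pair (left) and the V5 pair (right); each point is 1 gene, bars are medians and the dashed line is the median of all genes. All 10 lumenal members lie above 0 in the HA pair, with a median of 1.05. Among the lumenal members, SDF2L1, PDIA3, MANF and P4HB reached 50 CPM only in the first HA IP.

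A further 84 genes of the same pathway were counted for comparison: the ER membrane complex, tail-anchor insertion, other translocon-associated proteins, glycan trimming, other folding enzymes, ER-associated degradation, stress sensors and the COPII coat. Of these, 63 were tested, and edgeR called none in HA against input, HA against V5 or HA against HEK293. At an unadjusted p under 0.05 edgeR gave 5, 10 and 2 of the 63 in these comparisons, beside 8.86%, 11.2% and 3.83% of all genes. DESeq2's Wald test gave an adjusted p to 20, 59 and 1 of them and called none of those. At an unadjusted p under 0.05 it had 4, 6 and 2 of the 63, beside 391, 373 and 187 of 6244 genes. In V5 against input 10 of the 63 had an unadjusted p under 0.05 by edgeR, all of them lower, beside 12.9% of all genes. DESeq2 gave 20 of them an adjusted p there and called 0 (9 unadjusted, beside 586 of 6244 genes). By edgeR 1 gene of the 63 passed after adjustment, beside 0.753% of all genes. This was PRKCSH, a subunit of the glucosidase that trims the sugar on new glycoproteins, at 311 CPM in the input and 97.98 in HEK293, with 72.6 and 76.7 in the HA pair and 15.5 and 97.8 in the V5 pair (log2 −3.14, SE 0.92; edgeR adjusted p = 0.0472), on 2 and 8 counts in the V5 IPs. In HA against input the median of the 63 was 0.09, with 20 above the all-gene median of 0.38. Of their lists, tail-anchor insertion had the lowest median (−0.96, 6 tested) and other ER folding genes the highest (0.58, 11 tested).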

How the data were processed

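Each of the 7 deposited files gives counts of read pairs per gene as whole numbers. Per the file headers, the authors made them with featureCounts 1.5.2 on exons grouped by gene, as pairs and without strand (option 0), on a joint human and mouse annotation. STAR 2.5.2 and hg38 are named in the submitters' processing notes, and the labels' protocols give SMART-seq cDNA and Nextera libraries. All 58721 human identifiers matched GENCODE 29 by identifier, start and end; that release gave symbols, transcript GC and exon overlap. Pseudogenes named after a member took at most 7 counts per member in a library.

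CPM used human counts only. Levels per length used the exonic lengths in the files. Tests used edgeR 4.0.16 (R 4.3.3): filterByExpr (minimum count 10, total 15), TMM factors within human counts, and a quasi-likelihood fit over the 6 libraries with human RNA, two-sided, at a Benjamini-Hochberg adjusted p under 0.05 over all 6244 genes. The spread came from the HA and V5 pairs alone (2 residual degrees of freedom, common biological coefficient of variation 51.2%), and the single libraries were assumed to vary like them. SEs are Wald SEs from the fit. The code was tested on simulated data. Single libraries were set side by side as log2 CPM ratios with a prior count of 2, among genes of at least 50 CPM in either. Intervals are exact Clopper-Pearson 95%, and 0 counts were read as up to 3.

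Alternatives were other scalings, filters and fits, DESeq2 1.42.0, leaving out each IP, the IP order as a block, and removal of a loess trend on GC (span 0.5). Members, lists and rules were chosen with earlier results of these data known. Values in every library are given for members called in any test or alternative, the highest and lowest change against the input in each role, and the most abundant gene of each role. HSPA5, STT3A and SEC61G were added after their values were seen. Mouse genes were not used here.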

Additional observations from a re-analysis of the deposited data

How the results depend on the processing

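The 4 comparisons rest on 2 HA and 2 V5 libraries and on single inputs, so counts of calls moved with the processing. In HA against input the 39 calls became 68 with DESeq2 size factors, 104 with human totals, 64 with DESeq2's Wald test and 260 in a fit of only the groups compared (29 to 140 leaving out 1 IP). HA against V5 gave 38 with human totals and 39 with the GC trend removed (18 to 117 leaving out 1 IP), and HA against HEK293 gave 53 with human totals, 39 with the Wald test and 48 in the fit of only the groups compared (26 to 63 leaving out 1 IP). V5 against input gave 72 with DESeq2 size factors, 105 with human totals, 30 without a filter, 7 with 50 counts in 2 libraries and 71 in the fit of only the groups compared (76 to 167 leaving out 1 IP). Members called in HA against input were 3 with human totals, 2 with the Wald test, 4 in the fit of only the groups compared, 0 with the GC trend removed and 0 to 1 leaving out 1 IP. They were 0 to 1 leaving out 1 IP in each of HA against V5, HA against HEK293 and V5 against input, 1 for HA against HEK293 in the fit of only the groups compared, and for V5 against input 2 with human totals and 0 without a filter, with 50 counts or with the GC trend removed. DESeq2 gave an adjusted p to 2007 of 6244 genes in the comparisons with the input, 5517 in HA against V5 and 313 in HA against HEK293. The causes were not tested.

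With human totals the split of higher to lower calls was 65 to 39 in HA against input (main 12 to 27), 24 to 29 in HA against HEK293 (3 to 20) and 85 to 20 in V5 against input (16 to 31), and the all-gene median of HA against input was 0.57 (0.17 with DESeq2 size factors, 0.38 with TMM). The members' share in HA minus V5 was 0.136 to 0.279 points leaving out 1 IP. As a mean of log2 CPM, with 2 counts added per gene whatever the depth, the difference was −0.14 (exact permutation p = 1). No call of a member was reversed in sign under an alternative, but SEC62 was the only member called in the main fits. Called or not, 18 members changed sign in some alternative of HA against input and 25 in HA against V5. The same held for 10 in HA against HEK293 and 26 in V5 against input. With the IP order as a replicate block, 51, 24, 28 and 63 genes were called in the 4 comparisons in that order, and 2 members in HA against input, SEC62 and SRP9 (edgeR adjusted p = 0.0456). The deviations of first from second IPs correlated at 0.21 between HA and V5 over 2067 genes, and the labels do not say that the order pairs the libraries.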
